A study of Mus musculus with 32 samples.

Results

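The genes described here mark the cells of small blood vessels in the brain. They are 34 genes, of the 23420 genes in the count tables, chosen as markers: 23 of endothelial cells, 8 of mural cells and 3 of fibroblasts. Each was found by its symbol in the table of every mouse, and all 34 passed the filter on low counts that left 15589 genes to test. The mice were 8 B6.D2 congenic mice of Line 4a, which are heterozygous for a DBA/2J-derived segment of chromosome 11 on a C57BL/6J background, and 8 C57BL/6J littermates (B6). All were naïve, and the labels give an age of about 50 days. Striatal punches from both hemispheres of each mouse were pooled, so a library holds the RNA of every cell type in the punch, and fewer vascular cells cannot be told apart from less vascular RNA per cell. Line 4a carries a whole segment rather than a single gene, and neither the sex nor the home cage of each mouse is in the labels. The paper reports the same number of females, and the same number of males, in both genotypes. The 3 members on chromosome 11 (*Vtn*, *Col1a1* and *Pecam1*) lie distal to the segment that the study describes for Line 4a.

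Endothelial cells line the vessel wall, and in the brain they are sealed to each other by tight junctions and carry transporters that let glucose and lipids in and pump drugs out, which together make the blood-brain barrier. Mural cells wrap around them. Pericytes cover the capillaries and signal with the endothelium through platelet-derived growth factor and Notch, whereas smooth muscle cells surround the arterioles and contract. Fibroblasts lie around larger vessels and in the meninges and lay down collagen.

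Members were compared as CPM, read counts scaled to a common library size with the TMM normalization, using edgeR's quasi-likelihood test over all tested genes. The false discovery rate (FDR) is the Benjamini-Hochberg adjusted p over those genes. Reads counted on genes ranged from 19032826 to 33748353 per mouse, and the lowest count of any member in any mouse was 100, for *Col1a1*. Markers of striatal projection neurons summed to 4361 to 6484 CPM in B6 and 4791 to 6305 CPM in B6.D2 mice. Libraries from 2 mice stood apart from the others over all genes. B6.D2 mouse 1 had 27.3% of its reads with more than 1 alignment, the highest share of the 16 mice, and lay far out on the first principal component. B6 mouse 8 lay far out on the second component. Both are kept in the values below, and results that change without them are given both ways.

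The promoter windows of 3 endothelial members are shown because these genes varied together among the B6 mice, as described below, although their windows differ in the motif counted here. Members of the ETS family of transcription factors, which act in endothelial development, bind sites with the core GGAA (TTCC on the other strand). Each window holds the 250 bases before the RefSeq gene start (GRCm38.p6), 5′ to 3′ on the strand of the gene, and capitals mark this core on either strand. The window of the receptor *Tie1* is chr4:118489850-118490099 on the minus strand, that of the glucose transporter *Slc2a1* is chr4:119108495-119108744 on the plus strand, and that of the tight junction protein *Cldn5* is chr16:18776597-18776846 on the plus strand.
Tie1: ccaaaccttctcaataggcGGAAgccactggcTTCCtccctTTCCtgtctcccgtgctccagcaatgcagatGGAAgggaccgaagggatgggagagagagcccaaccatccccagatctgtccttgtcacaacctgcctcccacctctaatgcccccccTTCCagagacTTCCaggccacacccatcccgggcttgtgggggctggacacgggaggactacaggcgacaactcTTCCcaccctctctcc
Slc2a1: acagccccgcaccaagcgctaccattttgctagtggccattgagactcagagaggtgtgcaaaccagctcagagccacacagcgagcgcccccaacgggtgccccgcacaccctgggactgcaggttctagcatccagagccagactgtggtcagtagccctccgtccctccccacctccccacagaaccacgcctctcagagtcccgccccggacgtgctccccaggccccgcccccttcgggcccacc
Cldn5: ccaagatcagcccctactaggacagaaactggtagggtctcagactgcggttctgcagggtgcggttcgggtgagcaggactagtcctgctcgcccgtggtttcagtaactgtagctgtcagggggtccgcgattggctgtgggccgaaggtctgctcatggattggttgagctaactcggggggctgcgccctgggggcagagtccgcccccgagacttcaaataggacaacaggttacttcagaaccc

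The *Tie1* window held 7 cores and the *Slc2a1* and *Cldn5* windows held 0. Among all 32851 windows of this length, 93.4% held at least 1 core, 3.82% held at least 7 and 6.55% held none. Windows were found for 23 members, which had 27 windows with a median of 3 cores, and the median over all windows was also 3. A match of these letters is a description of the window and not a site that was shown to be used.

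Most vascular genes had somewhat higher levels in B6.D2 mice, but no member passed an FDR of 5% with edgeR's quasi-likelihood test, its likelihood ratio test or DESeq2. The log2 fold change of B6.D2 relative to B6 was above 0 for 31 of 34 members, compared with 54.9% of all tested genes, and its median was 0.13 for the endothelial, 0.18 for the mural and 0.20 for the fibroblast members, against 0.012 over all tested genes. Most glial, choroid plexus and projection neuron markers were above 0 as well, as given below. At an unadjusted p under 0.05, 7 of 23 endothelial members (*Slc2a1*, *Mfsd2a*, *Pltp*, *Ly6c1*, *Esam*, *Ly6a* and *Egfl7*), 2 of 8 mural members (*Acta2* and *Myh11*) and 0 of 3 fibroblast members were higher, and none was lower. The share of all tested genes that was higher at this threshold was 4.86%. FDRs of the members ran from 0.367 to 0.994, whereas 0.00641% of tested genes, which is 1 gene, passed an FDR of 5%. The genotypes overlapped for all 34 members, and 0.0577% of tested genes had no overlap.

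**Figure D1:**
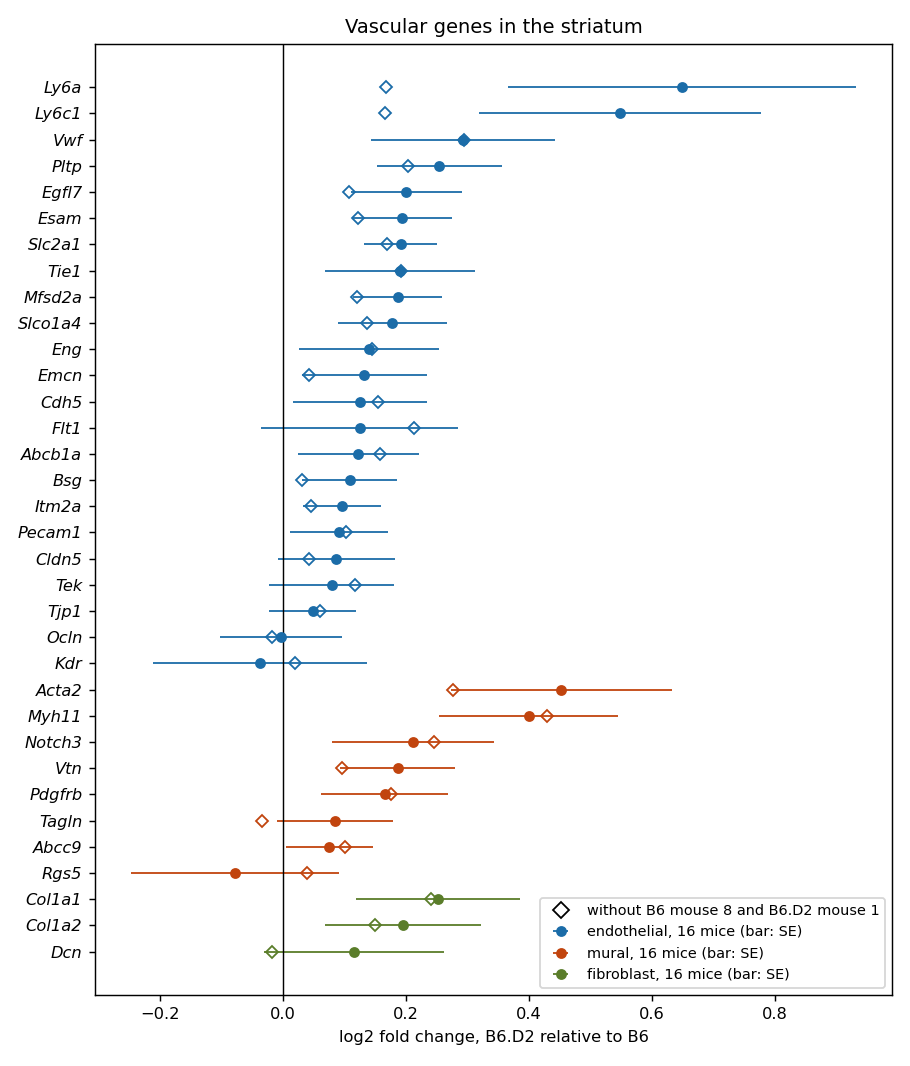
Log2 fold change of each member, B6.D2 relative to B6, as filled circles with bars of 1 SE (edgeR, 16 mice); open diamonds give the value without B6 mouse 8 and B6.D2 mouse 1. Of the filled circles 31 of 34 lie right of 0, and *Ly6a* and *Ly6c1* move from 0.65 and 0.55 to 0.17 without the 2 mice.

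Without B6 mouse 8 and B6.D2 mouse 1, 4 of 23 endothelial, 2 of 8 mural and 1 of 3 fibroblast members were higher at an unadjusted p under 0.05, when 5.44% of all tested genes were. Only *Slc2a1*, *Ly6c1* and *Myh11* were among the members higher with and without these mice. The log2 fold change was again above 0 for 31 of 34 members. Its median was then 0.12 for the endothelial, 0.14 for the mural and 0.15 for the fibroblast members. Over all 16 mice, 8 members had a p under 0.05 in an exact two-sided permutation test of mean log2 CPM, and 6 did without the 2 mice. Between 3 and 13 members did when 1 mouse was left out, with 3 without B6 mouse 2, 3 or 8, 5 without B6 mouse 5 and 13 without B6 mouse 6. The share of all tested genes under this permutation test is not given here, so these counts have no background beside them. By edgeR, 4 endothelial members were left at an unadjusted p under 0.05 without B6 mouse 3 or B6 mouse 5, again without a share over all genes.

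Transporters of the barrier held the member with the smallest p. *Slc2a1*, the glucose transporter of the barrier, which is also made by glia, had 96.2 CPM in the lowest B6 mouse, a median of 109 and 122 in the highest, compared with 107, 124 and 134 in B6.D2 mice. All B6.D2 mice except mouse 2 were above the B6 median, and 5 of 8 were above every B6 mouse. The log2 fold change was 0.19 ± 0.06 (SE, n = 8 per genotype; exact permutation p = 0.00886; edgeR FDR = 0.367), or 1.14-fold, and 0.17 without the 2 mice that stood apart. *Mfsd2a*, which takes up lysophospholipids that carry omega-3 fatty acids, had 20.3 to 26.1 CPM (median 24.2) in B6 and 22.1 to 31.3 CPM (median 26.3) in B6.D2 mice, a log2 fold change of 0.19 ± 0.07 (SE; edgeR FDR = 0.431) that was 0.12 without the 2 mice (unadjusted p = 0.0739 by edgeR). *Pltp*, a phospholipid transfer protein, had 41.9 to 66.8 CPM (median 52.7) in B6 and 54.5 to 76.7 CPM (median 62.5) in B6.D2 mice, a log2 fold change of 0.25 ± 0.10 (SE; edgeR FDR = 0.445) that was 0.20 without the 2 mice (unadjusted p = 0.0637 by edgeR). For both genes the ranges overlapped widely. *Bsg*, a chaperone of monocarboxylate transporters that many brain cells make, had the highest level per kilobase of exon of all members, 202 CPM per kb in B6. Its values were 314 to 379 CPM (median 362) in B6 and 348 to 529 CPM (median 362) in B6.D2 mice, so that the medians were alike and the highest value was that of mouse 1 alone, and its log2 fold change of 0.11 was 0.031 without the 2 mice. The organic anion transporter *Slco1a4* and the drug efflux pump *Abcb1a* had log2 fold changes of 0.18 and 0.12 (edgeR FDR = 0.513 and 0.673).

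Among the junction proteins, *Esam*, an adhesion molecule of endothelial junctions, was the member with an unadjusted p under 0.05. It had 16.3 to 24.5 CPM (median 19.95) in B6 and 20.9 to 27.4 CPM (median 22.8) in B6.D2 mice, and all 8 B6.D2 mice were above the B6 median. The difference was 0.19 ± 0.08 on the log2 scale (SE; edgeR FDR = 0.461) and 0.12 without the 2 mice. *Cldn5*, the main claudin of the barrier and the junction gene with the highest level per kilobase, had 29.9 to 54.3 CPM (median 39.5) in B6 and 34.6 to 48.9 CPM (median 43.0) in B6.D2 mice, with a log2 fold change of 0.087 that was 0.043 without the 2 mice, and the B6.D2 mice all lay inside the B6 range. *Pecam1*, *Cdh5* (VE-cadherin), *Ocln* (occludin) and *Tjp1* (ZO-1, a scaffold that many cell types make) had log2 fold changes from -0.0027 to 0.13.

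None of the 5 endothelial receptors had an unadjusted p under 0.05. *Eng*, a co-receptor for TGF-beta family ligands and the receptor with the highest level per kilobase, had 25.2 to 44.7 CPM (median 33.9) in B6 and 30.5 to 42.5 CPM (median 38.4) in B6.D2 mice. The B6.D2 mice again lay inside the B6 range. The VEGF receptors *Flt1* and *Kdr* and the angiopoietin receptor *Tek*, with its relative *Tie1*, had log2 fold changes of 0.12, -0.037, 0.080 and 0.19. Without the 2 mice *Flt1* was 0.21 (unadjusted p = 0.0436 by edgeR) and *Kdr* was 0.020. For both genes B6.D2 mouse 1 was far below the other B6.D2 mice, at 33.4 CPM for *Flt1* and 9.85 CPM for *Kdr* against B6.D2 medians of 82.4 and 23.9.

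The remaining endothelial members included the largest fold changes, and these rested on 1 library. *Ly6a* (Sca-1), a surface protein of endothelial and progenitor cells that interferons also induce, had 18.7 to 30.3 CPM (median 24.3) in B6 and 25.6 to 114 CPM (median 26.8) in B6.D2 mice. *Ly6c1*, its neighbor in the same gene family, had 20.5 to 25.6 CPM (median 23.4) in B6 and 23.8 to 87.2 CPM (median 26.3) in B6.D2 mice. In both genes B6.D2 mouse 1 held the high value, and the other B6.D2 mice were close to the B6 mice. The log2 fold change of *Ly6a* was 0.65 ± 0.28 (SE; edgeR FDR = 0.467) and 0.17 without the 2 mice (unadjusted p = 0.0638 by edgeR). That of *Ly6c1* was 0.55 ± 0.23 (SE; edgeR FDR = 0.460) and then 0.17 (unadjusted p = 0.0115 by edgeR). Both are short members of a gene family with similar sequences, and reads that align to more than 1 place were not counted. *Egfl7*, a secreted endothelial protein, had 19.1 to 27.8 CPM (median 24.8) in B6 and 25.5 to 37.0 CPM (median 26.7) in B6.D2 mice, with a log2 fold change of 0.20 that was 0.11 without the 2 mice. *Vwf*, von Willebrand factor, had 12.97 to 27.8 CPM (median 22.2) in B6 and 17.4 to 30.8 CPM (median 26.3) in B6.D2 mice, with a log2 fold change of 0.29 ± 0.15 (SE; unadjusted p = 0.0663 by edgeR) that was again 0.29 without the 2 mice (unadjusted p = 0.0313 by edgeR). *Itm2a*, a membrane protein and the gene of this group with the highest level per kilobase, had 70.6 to 97.5 CPM (median 82.4) in B6 and 81.1 to 108 CPM (median 87.0) in B6.D2 mice, with a log2 fold change of 0.097 that was 0.047 without the 2 mice. The sialomucin *Emcn* had a log2 fold change of 0.13 (edgeR FDR = 0.660), or 0.042 without the 2 mice.

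**Figure D2:**
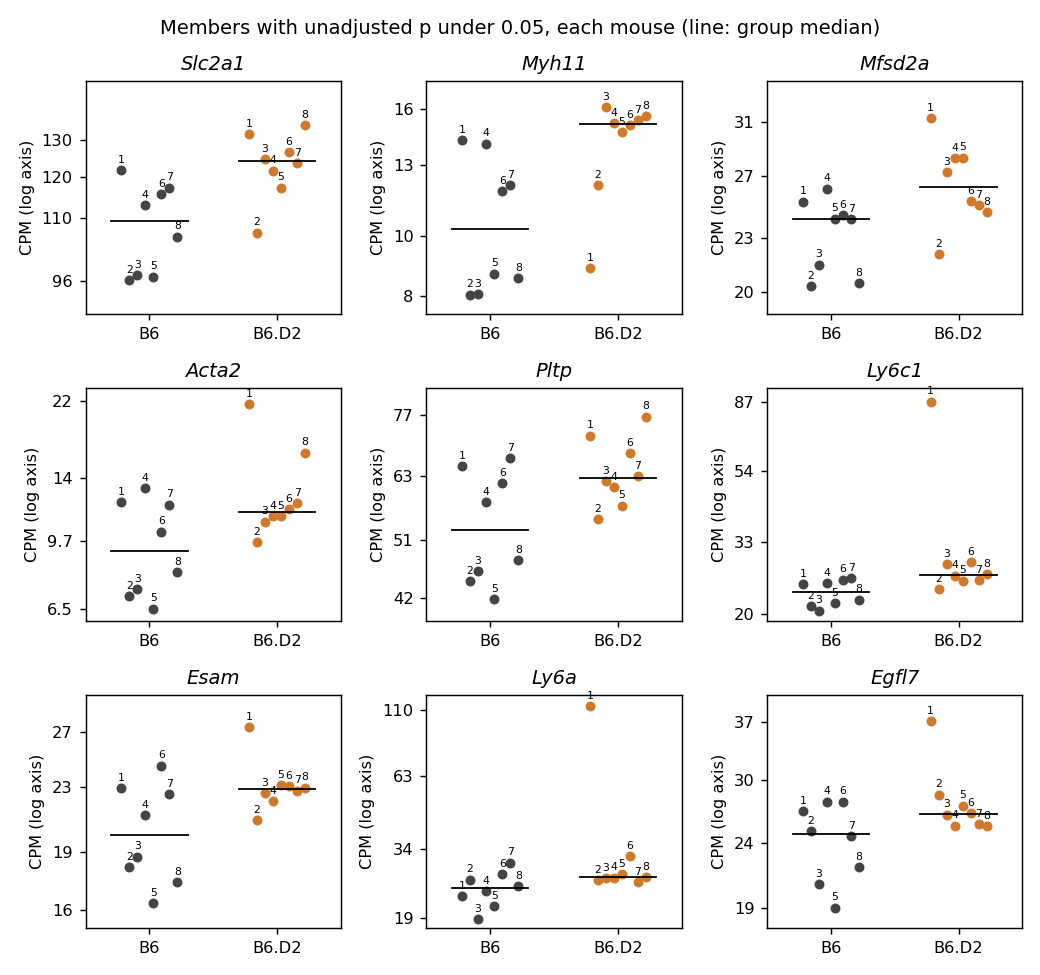
CPM (log axis) of each mouse for the 9 members with an unadjusted p under 0.05, numbered by mouse, with the group median as a line. B6 mice 2, 3, 5 and 8 lie low for *Slc2a1*, *Acta2*, *Pltp* and *Esam*, and B6.D2 mouse 1 is far above the other B6.D2 mice for *Ly6a* (114 CPM) and *Ly6c1* (87.2 CPM).

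Smooth muscle genes had the largest differences among the mural members. *Myh11*, the smooth muscle myosin heavy chain, had 8.05 to 14.3 CPM (median 10.3) in B6 and 8.87 to 16.1 CPM (median 15.1) in B6.D2 mice. B6.D2 mouse 1 had the lowest value of its genotype, and 6 of the other 7 were above every B6 mouse. The log2 fold change was 0.40 ± 0.15 (SE, n = 8 per genotype; exact permutation p = 0.0238; edgeR FDR = 0.407), or 1.32-fold, and was 0.43 without the 2 mice (unadjusted p = 0.00289 by edgeR). *Acta2*, smooth muscle actin, had 6.51 to 13.2 CPM (median 9.14) in B6 and 9.59 to 21.5 CPM (median 11.4) in B6.D2 mice. Here B6.D2 mouse 1 was the highest of its genotype, and the log2 fold change of 0.45 ± 0.18 (SE; edgeR FDR = 0.445) was 0.28 without the 2 mice (unadjusted p = 0.0890 by edgeR). *Tagln* (SM22), another actin-binding protein of smooth muscle and the one with the highest level per kilobase, had 13.98 to 17.1 CPM (median 15.1) in B6 and 13.4 to 23.5 CPM (median 15.2) in B6.D2 mice. Its log2 fold change was 0.084, and -0.034 without the 2 mice, so the 3 smooth muscle genes did not move alike.

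Of the 5 pericyte genes none had an unadjusted p under 0.05. *Vtn*, vitronectin, had the highest level per kilobase, with 62.2 to 86.5 CPM (median 75.1) in B6 and 76.0 to 115 CPM (median 81.8) in B6.D2 mice, a log2 fold change of 0.19 ± 0.09 (SE; edgeR FDR = 0.517) that was 0.096 without the 2 mice. *Notch3*, the mural Notch receptor, had 25.0 to 44.5 CPM (median 34.7) in B6 and 24.1 to 45.7 CPM (median 42.1) in B6.D2 mice, a log2 fold change of 0.21 ± 0.13 (SE; edgeR FDR = 0.595). Without the 2 mice its log2 fold change was 0.25 (unadjusted p = 0.0236 by edgeR). The PDGF receptor *Pdgfrb* had a log2 fold change of 0.17, the potassium channel subunit *Abcc9* had 0.076, and *Rgs5*, a regulator of G protein signaling, had -0.078, or 0.040 without the 2 mice.

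Of all members *Col1a1* and *Col1a2* were the least abundant per kilobase of exon. *Col1a1*, a chain of type I collagen, had 3.83 to 7.90 CPM (median 5.85) in B6 and 4.86 to 8.09 CPM (median 7.17) in B6.D2 mice, a log2 fold change of 0.25 ± 0.13 (SE; edgeR FDR = 0.536) that was 0.24 without the 2 mice (unadjusted p = 0.0270 by edgeR). *Col1a2*, the partner chain, had a log2 fold change of 0.20. *Dcn*, the proteoglycan decorin, had 5.83 to 10.4 CPM (median 8.85) in B6 and 7.01 to 14.8 CPM (median 8.94) in B6.D2 mice, with a log2 fold change of 0.12 that was -0.017 without the 2 mice. The 15 members described without their values in each mouse had log2 fold changes from -0.078 to 0.20 and FDRs from 0.513 to 0.994.

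Vascular genes varied together among the B6 mice. The mean centered log2 CPM of the 23 endothelial members was 0.064, 0.0090, 0.19 and 0.14 in B6 mice 1, 4, 6 and 7, and -0.15, -0.35, -0.31 and -0.24 in B6 mice 2, 3, 5 and 8. In B6.D2 mice it ran from -0.041, in mouse 2, to 0.15. The SD was 0.21 in B6 and 0.061 in B6.D2 mice around means that differed by less than the B6 SD. The mural mean had the same low B6 mice (-0.27, -0.32, -0.32 and -0.26 in mice 2, 3, 5 and 8), with an SD of 0.22 in B6 and 0.10 in B6.D2 mice. Fibroblast members followed a different order, in which B6 mouse 5 (0.19) was among the highest and B6 mouse 7 (-0.33) among the lowest.

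**Figure D3:**
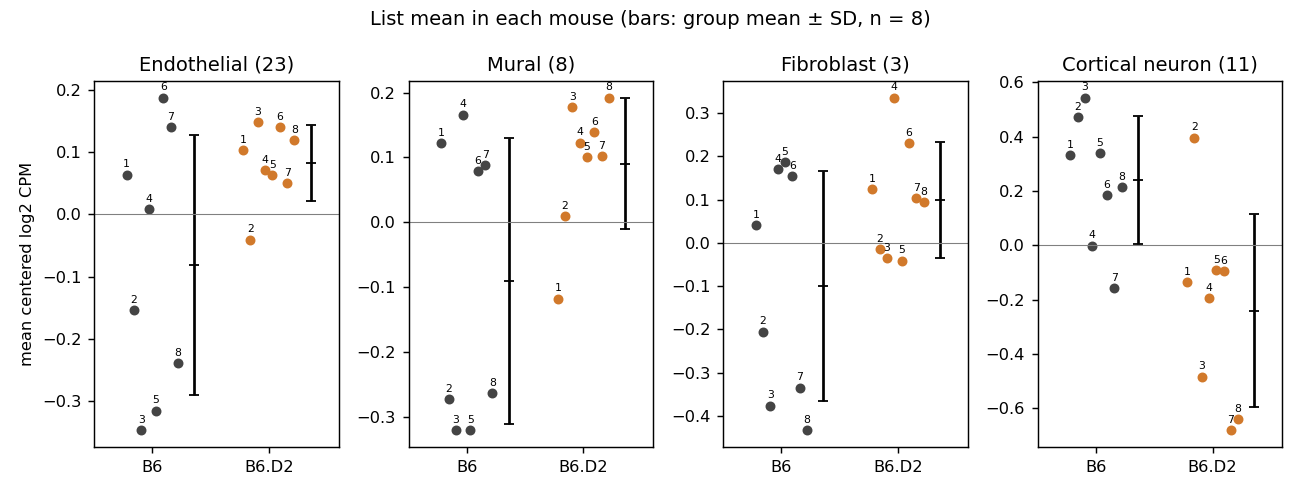
Mean centered log2 CPM of the 23 endothelial, 8 mural and 3 fibroblast members and of 11 cortical neuron markers in each mouse, with group mean and SD at the right. For the endothelial and mural lists, B6 mice 2, 3, 5 and 8 lie at -0.15 or lower and the other B6 mice lie above 0.

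Within the B6 genotype the mean pairwise correlation of log2 CPM over 8 mice was 0.73 among endothelial members, 0.63 among mural members and 0.65 between the endothelial and mural members, compared with 0.00044 over all pairs of tested genes. Endothelial and fibroblast members had a mean of 0.22. These are descriptions across libraries that share the same scaling. The mean over all pairs was near 0 in the 8 B6.D2 mice too (0.00058), and no mean within a list of another cell type is given here. Whether vascular genes varied together more than markers of other cell types was not tested. Each endothelial member was also set against the mean of the other 22, and r ranged from 0.58 (*Bsg* and *Mfsd2a*) to 0.98 (*Eng* and *Tek*), with 12 of 23 members above 0.9. For the genes whose windows are printed above, *Tie1* had 0.97, *Slc2a1* 0.87 and *Cldn5* 0.78. Among the mural members 5 of 8 were above 0.9, and *Tagln* had 0.11. In B6.D2 mice without mouse 1 the mean pairwise correlation was 0.35 among endothelial and 0.16 among mural members, and with mouse 1 it was 0.079 and -0.044.

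The coefficient of variation of a member, its SD over mice divided by the mean, had a median of 17.7% in B6 mice and 7.07% in the 7 B6.D2 mice without mouse 1, and it was higher in B6 for 33 of 34 members. It was higher in B6 for 31 of 34 members when B6 mouse 8 was left out as well, and for 20 of 34 when all 16 mice were kept. For all tested genes the medians were 9.37% in B6 and 6.52% in B6.D2 mice without mouse 1, and 75.3% of genes were more variable in B6. That share was 65.2% without both mice and 39.9% with all 16. The ratio of the highest to the lowest B6 mouse ran from 1.21 for *Bsg* to 2.14 for *Vwf*. With mouse 1 included, the B6.D2 median was 12.7% for the members and 12.3% for all tested genes. Home cage and sex, which the labels do not give, were not tested for a part in this spread.

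B6.D2 mouse 1 was outside the range of the other 7 B6.D2 mice for 29 members, above it for 13 and below it for 16. This library stood apart over all genes, and the share of all tested genes outside such a range is not given here. The count is therefore not read as particular to vascular genes. Members above the range were mostly shorter than those below it, with *Emcn* (5409 bp of annotated exon, above the range) as an exception. *Ly6a* and *Ly6c1*, with 819 and 840 bp of annotated exon, were 2.10 and 1.74 higher than the median of the other B6.D2 mice on the log2 scale, whereas *Flt1*, with 11583 bp, was at -1.32, *Kdr*, with 7278 bp, was at -1.34 and *Rgs5*, with 4549 bp, was at -1.58. Over the 34 members the correlation of this deviation with log2 exon length was -0.81 (Spearman -0.84), and over 14490 tested genes with a length it was -0.40 (Spearman -0.56). Genes are not independent replicates, so no p is given. B6 mouse 8 showed the same sign over the members (-0.68) and a value of -0.051 over all genes. It was below the other 7 B6 mice for 6 members and above them for 0, again without a share over all genes beside these counts. The part of exon length in the difference between genotypes was not tested, and the values without both mice are given beside the members that they move.

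**Figure D4:**
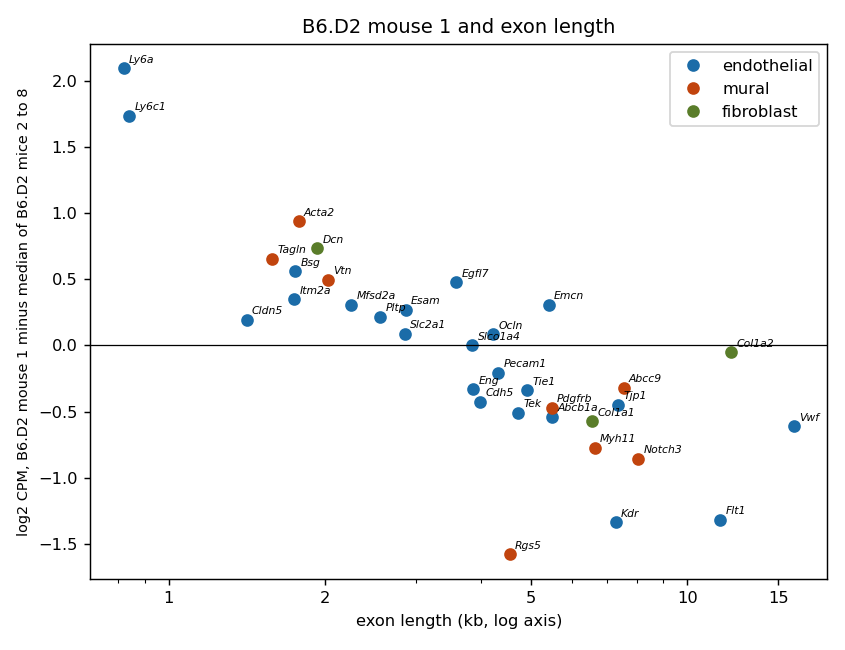
Log2 CPM of B6.D2 mouse 1 minus the median of the other 7 B6.D2 mice for each member (y axis) against annotated exon length in kb (x axis, log). Members below 2 kb lie above 0, and *Flt1*, *Kdr* and *Rgs5* lie between -1.32 and -1.58.

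The level of vascular genes also moved with cortical neuron markers, which a striatal punch can hold where it reaches the overlying cortex. All 11 cortical markers were lower in B6.D2 mice, with a median log2 fold change of -0.56, and 8 had an unadjusted p under 0.05. Of all 15589 tested genes, 1559 had an unadjusted p under 0.05 in either direction, and 758 of these were higher. The summed level of the cortical markers was 547 to 872 CPM in B6 and 390 to 767 CPM in B6.D2 mice, so no mouse was without them. Across the 8 B6 mice the endothelial mean and the cortical mean had r = -0.67 (rho = -0.74), and r = -0.56 without the 2 mice farthest from the cortical median. Across the 8 B6.D2 mice r was -0.58 (rho = -0.29) and then -0.46. For the mural mean r was -0.70 in B6 and -0.52 in B6.D2 mice. Glial markers moved with the endothelial mean in B6.D2 mice, with r = 0.85 for astrocytes (rho = 0.55) and 0.78 for oligodendrocytes (rho = 0.48), and less so in B6 mice (0.085 and 0.27). Without the 2 mice farthest from the glial median, r in B6.D2 mice was 0.38 for astrocytes and 0.49 for oligodendrocytes. The mural mean and the oligodendrocyte mean had r = 0.0020 in the 8 B6.D2 mice and 0.95 without mouse 1. A cortical score, the mean of the same markers with each also scaled by its SD over the mice, was entered as a covariate in the model. With it 0 of 34 members had an unadjusted p under 0.05 in the edgeR test, where 1.97% of all tested genes were higher at that threshold. The median log2 fold change was then 0.061 for the endothelial and 0.078 for the mural members, and 23 of 34 members were above 0. Because the covariate itself differs between the genotypes, its share of the difference and that of genotype cannot be told apart in these mice.

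**Figure D5:**
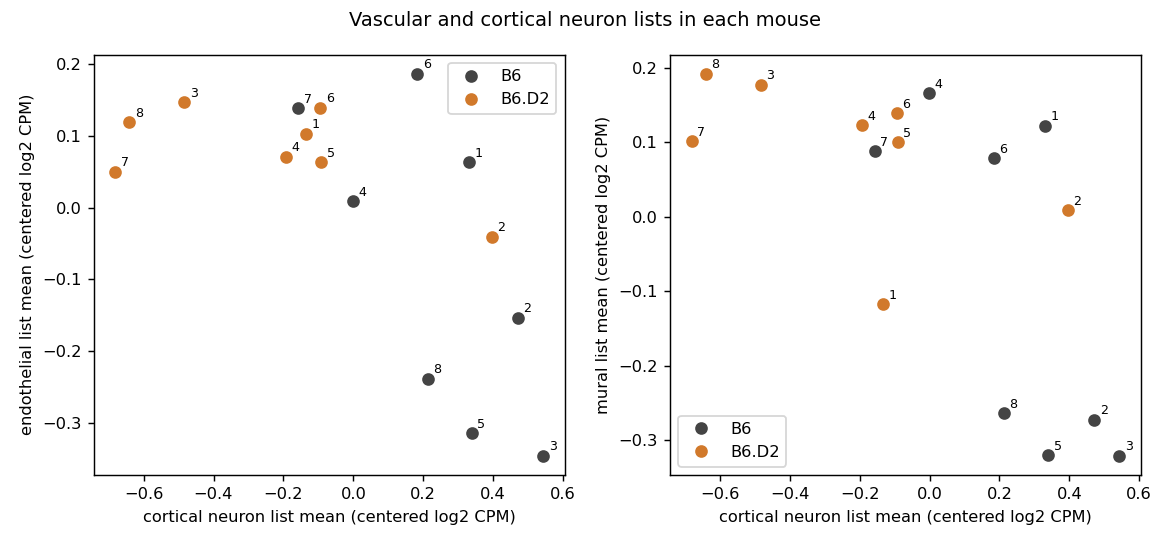
Mean centered log2 CPM of the endothelial (left) and mural (right) members against that of 11 cortical neuron markers; each point is 1 mouse, numbered within its genotype. Within B6, r was -0.67 for the endothelial and -0.70 for the mural members.

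Few markers of the other cell types in the punch passed the same threshold. Astrocytes wrap the vessels with their end-feet, and 1 of 8 astrocyte markers (*Gjb6*, connexin 30) was higher at an unadjusted p under 0.05, and 0 of 8 were for each of oligodendrocytes, microglia, choroid plexus and striatal projection neurons. *Gjb6* was not at this threshold without the 2 mice, when 1 microglial marker and 1 projection neuron marker were higher and 1 microglial marker was lower. Their median log2 fold changes were 0.079 for astrocytes, 0.10 for oligodendrocytes, 0.056 for microglia, 0.22 for choroid plexus and 0.057 for projection neurons. Above 0 were 8 of 8 markers each for oligodendrocytes and projection neurons, and 7 of 8 each for microglia and choroid plexus. For astrocytes it was 5 of 8. Values above 0 were therefore not particular to vascular genes. The choroid plexus markers summed to 23.2 to 137 CPM in B6 and 33.3 to 178 CPM in B6.D2 mice. Of 11 blood cell genes 2 could be tested, *Ptprc* and *Alas2*, and neither had an unadjusted p under 0.05. The hemoglobin genes in the tables were listed at 0 in every mouse. The reason was not tested, and blood left in the vessels was not read from them.

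Other genes of the vessel wall were taken from lists of known markers. Of all tested genes 4.86% were higher at an unadjusted p under 0.05, 5.44% without the 2 mice and 1.97% with the cortical covariate. Of 30 other endothelial markers 8 were higher at an unadjusted p under 0.05 and none was lower, with a median log2 fold change of 0.15 and 28 of 30 above 0. The 5 with the smallest p were the adrenomedullin receptor partner *Ramp2* (0.34), the organic anion transporter *Slc22a8* (0.33), the guidance receptor *Robo4* (0.34), *Rasip1*, which acts in vessel lumen formation (0.17), and the transcription factor *Sox17* (0.35). Without the 2 mice 8 of these markers were again higher, 5 of them (*Podxl*, *Ramp2*, *Rasip1*, *Robo4* and *Slc22a8*) the same genes. *Sox17* was not among them (unadjusted p = 0.052 by edgeR). With the cortical covariate 1 marker was higher, *Cd34*, which was not among the 8 of the main comparison (unadjusted p = 0.463 by edgeR). Of 19 other mural markers tested 3 were higher, *Myl9* (0.31), *Mustn1* (0.44) and *Des* (0.27), with a median of 0.18. *Myl9*, a myosin light chain of smooth muscle, had 11.2 to 16.5 CPM in B6 and 15.1 to 24.0 CPM in B6.D2 mice (edgeR FDR = 0.397). Its log2 fold change was 0.22 without the 2 mice, when it was the 1 other mural marker still under 0.05. *Cnn1* did not pass the filter on low counts. Of 13 fibroblast and meningeal markers tested 2 were higher, the matrix genes *Pcolce* (0.29) and *Bgn* (0.23), and neither was at this threshold without the 2 mice. *Foxc2* and *Slc47a1* did not pass the filter.

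Of the ligands and partners of the vascular receptors, 1 of 24 tested was higher at an unadjusted p under 0.05, near the 4.86% of all tested genes, and 2 were without the 2 mice. It was the Notch ligand *Jag1*, with 13.1 to 18.9 CPM in B6 and 16.9 to 21.8 CPM in B6.D2 mice and a log2 fold change of 0.24 ± 0.09 (SE; edgeR FDR = 0.405). The median of the list was 0.070, and *Gdf2* did not pass the filter. In the Wnt pathway that induces and maintains the barrier, 2 of 15 genes were higher and 1 was lower. Leaving out the 2 mice gave the same counts, with *Gpr124* in place of *Sox17*. *Reck*, a membrane partner of the Wnt7 receptor complex, had 17.5 to 25.0 CPM in B6 and 23.6 to 25.3 CPM in B6.D2 mice, with a log2 fold change of 0.19 ± 0.07 (SE; edgeR FDR = 0.421). *Sox17* was the other, and *Ctnnb1* (beta-catenin), made by all cells, was lower by a log2 fold change of -0.083 ± 0.039 (SE; edgeR FDR = 0.491). The median of this list was 0.031.

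Each genotype was sequenced on both pairs of lanes, mice 1 to 4 on lanes 5 and 6 and mice 5 to 8 on lanes 7 and 8. The median log2 fold change of the endothelial members was 0.20 on lanes 5 and 6 and 0.14 on lanes 7 and 8, and that of the mural members was 0.14 and 0.16. Members above 0 numbered 30 and 32 of 34. *Myh11* had 0.23 on lanes 5 and 6, where B6.D2 mouse 1 was sequenced, and 0.56 on lanes 7 and 8. The interaction of genotype with lane pair had an unadjusted p under 0.05 for 1 member, *Ocln* (0.20 and -0.19), when 1.88% of tested genes did, and the lowest FDR of the interaction among members was 0.95 by edgeR.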

How the data were processed

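Striatal RNA of 16 mice was sequenced as 50 bp single-end reads from a poly(A) library kit. According to the authors' methods, reads were aligned with TopHat and bowtie2 to UCSC's mm10 genome and counted per gene with HTSeq 0.6.1p1 in union mode without strand. The deposited counts are raw, with 1 table per mouse and lane. Reads with more than 1 alignment, between 19.5% and 27.3% per mouse, were left out of gene counts by the authors, and these and the other rows that name no gene stayed out of library sizes. The authors' tables of fold changes, p-values and FDRs from their own edgeR comparison were not used here.

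Counts were added over the lanes of a mouse, since the lanes of 15 mice differed by little more than sampling noise (chi-square of 0.997 to 1.051 per degree of freedom). B6 mouse 7 is represented by 1 lane. Low counts were removed by filterByExpr, library sizes were scaled by TMM, and genotype was tested in edgeR 4.0.16 (R 4.3.3) by quasi-likelihood, with Benjamini-Hochberg adjustment over all 15589 genes. The study's home cage covariate is not in the labels and was not entered. Replicates are separate mice. Log2 CPM used a prior count of 0.5. Exon lengths came from GENCODE annotation of mm9 and promoter windows from RefSeq (GRCm38.p6). The pipeline was tested on simulated data.

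Members and marker lists were chosen with earlier results of these data known. Values in each mouse were given for members with an unadjusted p under 0.05, a log2 fold change over 0.2 in size or the highest level per kilobase of their role, and up to 5 genes were named from each other list. Alternatives tried were upper-quartile and RLE scaling, other filters, DESeq2 1.42.0, edgeR's likelihood ratio test, blocks by mouse number or lane pair, each lane pair, the second lane file alone, a cortical covariate and leaving out each mouse. Leaving out B6 mouse 8 and B6.D2 mouse 1 together was chosen after seeing the data.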

Additional observations from a re-analysis of the deposited data

Results flagged for a closer look

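Dixon's test at the 95% level singled out 17 values among 68 tests of a member within a genotype of 8 mice. The nominal rate of 1 in 20 is for independent tests, whereas the members share libraries and vary together. The share over all tested genes is not given here. All 17 belonged to B6.D2 mouse 1, and none to a B6 mouse.

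Its 9 high values were 114 CPM for *Ly6a*, 87.2 for *Ly6c1*, 529 for *Bsg*, 115 for *Vtn*, 108 for *Itm2a*, 37.0 for *Egfl7*, 27.4 for *Esam*, 23.5 for *Tagln* and 14.8 for *Dcn*. Its 8 low values were 33.4 CPM for *Flt1*, 33.0 for *Pdgfrb*, 24.1 for *Notch3*, 21.0 for *Rgs5*, 17.1 for *Tek*, 16.0 for *Cdh5*, 9.85 for *Kdr* and 4.86 for *Col1a1*. The same library had the highest share of reads with more than 1 alignment, and a cause was not tested.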

How the results depend on the processing

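The median log2 fold changes of the endothelial, mural and fibroblast members kept their direction under every alternative. They moved by less than the larger between-mouse SD of the 2 genotypes, but those SDs (0.21, 0.22 and 0.27) exceeded the medians themselves. A loss of the whole difference would also have met this measure, so it does not show stability. The cortical covariate lowered the medians from 0.13, 0.18 and 0.20 to 0.061, 0.078 and 0.14. With the cortical covariate other medians changed sign, to -0.034 for junction genes, -0.049 for endothelial receptors, -0.019 for ligands, -0.028 for the Wnt pathway, -0.0028 for astrocytes, -0.026 for oligodendrocytes and -0.047 for choroid plexus. Leaving out each mouse in turn gave endothelial medians from 0.088 to 0.19, mural medians from 0.14 to 0.21 and fibroblast medians from 0.13 to 0.25, with 4 to 10, 2 to 3 and 0 to 1 members at an unadjusted p under 0.05. Under the exact permutation test 3 to 13 members were under 0.05. Neither the edgeR nor the permutation counts with 1 mouse left out have a share over all genes beside them. All genes at an FDR of 5% numbered 1 to 4, with 4 without B6.D2 mouse 1 and 3 without B6.D2 mouse 6. The 1 fibroblast member appeared without B6 mouse 5 and without B6.D2 mouse 1.

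Counts of all genes at an FDR of 5% depended on the method: 20 with the likelihood ratio test, 25 with DESeq2, 2 with a lane pair term, 7 without B6 mouse 8 and B6.D2 mouse 1, and 0 with the replicate block, the cortical covariate or either lane pair alone. On lanes 5 and 6 alone, 1 endothelial and 0 mural members had an unadjusted p under 0.05 and 0 members passed the permutation test; on lanes 7 and 8 these were 1, 4 and 3. Both have 4 mice per genotype, and none of these member counts has a share over all genes beside it. The cortical covariate left 0 endothelial and 0 mural members. Without the 2 mice there were 4 endothelial members and 1 fibroblast member.

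Some members changed sign. *Ocln* became 0.0094 with upper-quartile normalization, 0.011 with the replicate block, 0.00432 with a lane pair term and 0.20 on lanes 5 and 6. On those lanes *Flt1* was -0.0012 and *Tjp1* -0.037, and on lanes 7 and 8 *Kdr* was 0.095, *Rgs5* 0.048 and *Tagln* -0.0033. Without the 2 mice *Kdr* was 0.020, *Rgs5* 0.040, *Tagln* -0.034 and *Dcn* -0.017. With the cortical covariate *Cldn5* was -0.0052, *Flt1* -0.079, *Pecam1* -0.033, *Cdh5* -0.035, *Tek* -0.049, *Tie1* -0.020, *Eng* -0.034 and *Tjp1* -0.069. When 1 mouse was left out, *Kdr* ranged from -0.10 to 0.072, *Ocln* from -0.044 to 0.077, *Rgs5* from -0.13 to 0.047, *Tagln* from -0.013 to 0.12 and *Dcn* from -0.015 to 0.16. The cause was not tested.

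Mouse numbers did not pair the samples, since same-numbered mice had correlations of their deviations from -0.115 to 0.364 and 3 of 8 were above 0.1. With the replicate block 6 endothelial, 3 mural and 0 fibroblast members had an unadjusted p under 0.05 by edgeR. The share over all genes is not given for this fit. With 8 mice per genotype, the change was smaller than the SD between B6 mice for most members.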
